A study of Danio rerio with 6 samples.

Results

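Gonadotropes are the pituitary cells that make the gonadotropins, and here they were taken as single wells by their own hormone transcripts. A well of a 5-month or 7-month plate counted as a gonadotrope well if it held at least 400 unique molecular identifiers (UMIs, each a tag for 1 captured transcript), with at least 50 of them and at least 5% of them from cga, lhb and fshb together. This rule selected 43 of the 740 adult wells with at least 400 UMIs and of the 1390 such wells of the series. The other 697 kept adult wells served as the comparison.

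The cells came from zebrafish of the AB strain carrying the Tg(pomca:EGFP) reporter, in which EGFP is driven by the pomca promoter, and all adults were males. Every group, the juveniles at 37 days post-fertilization (dpf) included, had received the fluorescently tagged dipeptide β-Ala-Lys-Nε-AMCA at 4.6 mM by injection, 10 µl in adults and 5 µl in juveniles, 3 hours before the pituitaries were taken. For each age 5 pituitaries were pooled and dissociated, propidium iodide was added to mark dead cells, and sorted cells went into 2 plates of 384 wells for MARS-seq, in which each transcript is tagged near its 3′ end and counted. The 2 plates of an age therefore share 1 pool, and every error and p-value below describes plates and not fish.

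Each gonadotropin is a pair of a common α subunit, encoded by cga, with a β subunit that gives the hormone its identity: lhb for luteinizing hormone and fshb for follicle-stimulating hormone. Thyrotropin uses the same α subunit with the product of tshba. The subunits fold and are glycosylated in the endoplasmic reticulum, are stored in dense-core granules and leave the cell by calcium-triggered exocytosis when gonadotropin-releasing hormone acts on its receptor. In mammals most gonadotropes make both hormones, whereas fish are known for largely separate luteinizing and follicle-stimulating cells.

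The adult plates held 105793 to 465093 UMIs, and they shared 1 sequencing batch and no well names. The labels name the tissue as neurohypophysis, and gonadotropes belong to the other lobe, the adenohypophysis. Of the 16 pituicyte and glia markers, genes of the neurohypophysis, the summed level was 0.756% to 1.36% of UMIs in the other wells of the 4 plates and 0% to 0.0529% in the gonadotrope wells. Nothing in the sources used here gives the number of cells in a well, so wells with material of more than 1 cell were neither marked nor removed.

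Gonadotrope wells were mostly a feature of the 5-month plates. They were 26 of 257 kept wells on the first 5-month plate, or 10.1% (95% Clopper-Pearson interval 6.72% to 14.5%), and 14 of 174 on the second, or 8.05% (4.47% to 13.1%). At 7 months they were 1 of 203, or 0.493% (0.0125% to 2.71%), and 2 of 106, or 1.89% (0.229% to 6.65%). The mean over plates was 9.08% ± 1.46 (SD, n = 2 plates) at 5 months and 1.19% ± 0.986 (SD, n = 2 plates) at 7 months. Both 5-month plates lay above both 7-month plates, but 2 plates against 2 cannot give an exact two-sided permutation p below 0.33, so no test was made. None of the 650 kept wells at 37 dpf met the count rule, and 0 of 311 and 0 of 339 wells allow shares of up to 0.965% and 0.885%, taking 3 wells as the limit for a count of 0. These intervals and limits cover counting error only.

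At 5 months the selected wells had a higher median UMI count than the other wells. The rule favours deep wells through its minimum of gonadotropin UMIs, so this difference is set in part by the selection. The selected wells had medians of 3432.5 and 3131 UMIs, against 1063 and 1009 in the other wells. They supplied 22.2% and 19.3% of the kept UMIs. Among the other wells of these plates, 125 and 80 also held at least 1000 UMIs. At 7 months the single selected well of the first plate held 637 UMIs, against a median of 931.5 in the other wells. On the second plate the median was 737 in the selected wells, against 675.5. The gonadotrope wells held 94.3% and 93.1% of all cga, lhb and fshb UMIs of the kept 5-month wells, and 66.7% and 95.5% at 7 months. Reads assigned to the AC024175 rows were a median of 18% and 20.2% of UMIs in gonadotrope wells and 29.9% and 36.0% in the others at 5 months, and 6.91% and 10.0% against 22.9% and 24.5% at 7 months. Their part in the differences below was not tested beyond leaving these rows out, which gave 240 calls in place of 222. What depth contributes to the number of selected wells was not tested, but with a minimum of 1000 UMIs in place of 400 the shares were 16.1% ± 1.64 (SD, n = 2 plates) at 5 months and 0% on both 7-month plates.

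The gonadotropin share, being the basis of the rule, is a description only. In the 26 and 14 wells at 5 months it ran from just above the limit, at 5.19% and 5.21%, and the 3 wells at 7 months were the 3 highest of all, at 34.5%, 31.8% and 26.8%. The rule's minimum of gonadotropin UMIs keeps a shallow well from qualifying near the limit. These 3 wells, with 611 to 863 UMIs, therefore needed a higher share to qualify than deep wells did. They held 220, 194 and 231 gonadotropin UMIs, well above the minimum of 50. What the rule contributes to their high shares was not tested. The nearest wells below the limit stood at 4.68% and 4.06% on the first 5-month plate and at 4.88% and 3.99% on the second. Of these, the 4.68% well had 90 UMIs of cga with 1 of lhb and none of fshb. The 4.06% well had 42 of cga, none of lhb and 27 of fshb, and the 4.88% well had 61, 2 and 27. A further row named CGA (1 of many), a second copy of the α subunit by its name, held 580 UMIs in gonadotrope wells and 30 in all others, and reads of near-identical copies may have been split between it and cga.

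**Figure D1:**
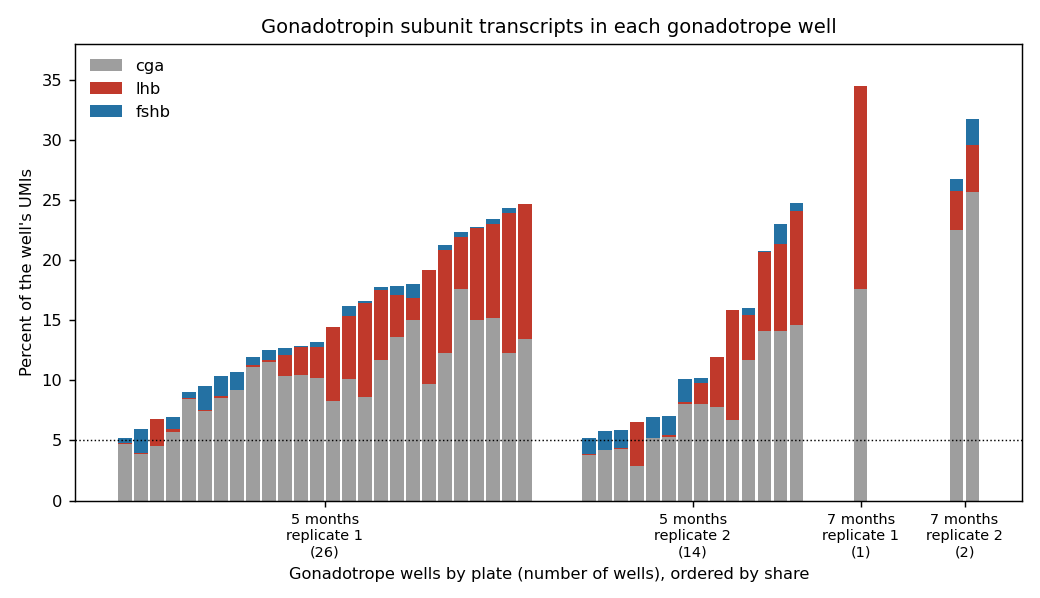
Percent of a well's UMIs from cga, lhb and fshb (stacked bars) in each of the 43 gonadotrope wells, grouped by plate and ordered by the summed share; the dotted line is the 5% limit of the rule. Within the 5-month plates the wells whose β subunit is fshb sit mostly at the low end, and the 3 wells of the 7-month plates are the tallest.

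By their β subunit the wells fell into unequal kinds. Taking at least 80% of the lhb and fshb UMIs as dominance, 23 wells were lhb-dominant, 15 fshb-dominant and 5 mixed. The first 5-month plate had 15, 9 and 2 of these kinds and the second 7, 6 and 1, the first 7-month plate had 1 lhb-dominant well and the second 2 mixed wells. Gonadotropin transcripts took a median of 17.9% of UMIs in lhb-dominant wells (lowest 6.51%, highest 34.5%) and 7.06% in fshb-dominant wells (lowest 5.19%, highest 12.5%). The ranges overlap, and no fshb-dominant well reached the median of the lhb-dominant ones. The 5% limit cuts into the low end: the wells at 4.06% and 4.88% just below it were fshb-dominant by the same definition. An lhb-dominant well outside the rule stood at 2.43%, on the first 7-month plate. The lowest values, the median of the fshb-dominant wells and the numbers of each kind thus depend in part on the rule.

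The kinds were assigned from lhb and fshb, so both levels are a description, and the dominance limit itself bounds what a kind can hold. The lhb transcript was at most 0.209% of UMIs in the 15 fshb-dominant wells, at least 1.71% in the 5 mixed wells and at least 2.24% in the 23 lhb-dominant wells. As background, lhb was seen in 57.8% and 39.2% of the other 5-month wells with a gonadotropin share under 1%, at medians of 1063 and 972 UMIs a well, and reached 0.460% and 0.417% of their UMIs.

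The fshb transcript was seen in 6.67% and 5.88% of the same other wells, with highest values of 0.217% and 0.231% of UMIs. Of the 22 lhb-dominant wells at 5 months, 11 lay above the highest background value of their plate and 4 had no fshb UMI. All 3 mixed wells at 5 months lay above it as well. The highest fshb share in an lhb-dominant well was 1.64%, within the 0.442% to 2.0% of the fshb-dominant wells. Whether such wells held 1 cell with both subunits or more than 1 cell cannot be told apart here.

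**Figure D2:**
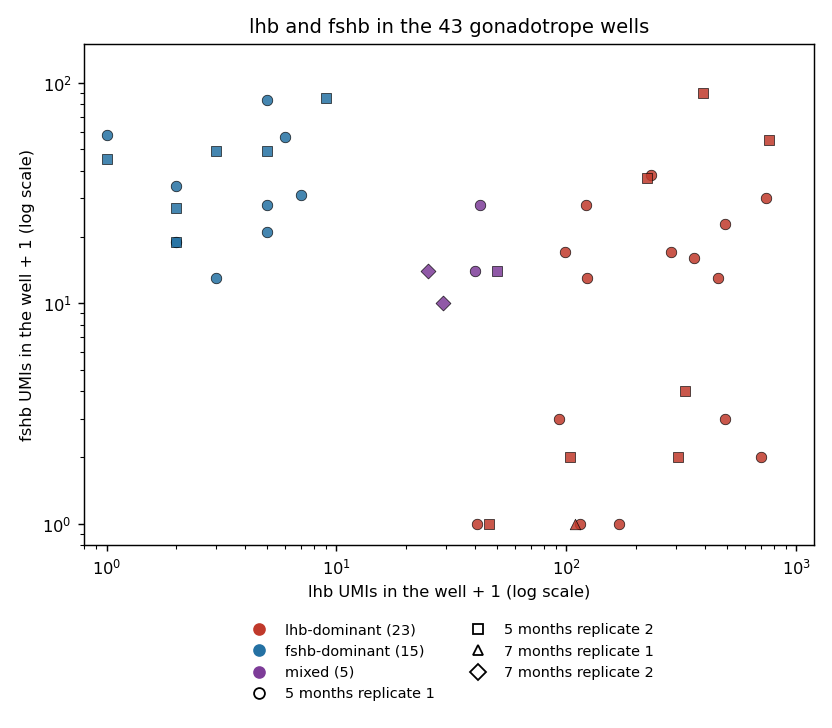
UMIs of lhb (x axis) and fshb (y axis) in the 43 gonadotrope wells, both plus 1 on log scales, coloured by kind and shaped by plate. The 15 fshb-dominant wells hold 0 to 8 lhb UMIs, which the limit for the kinds bounds, and lhb-dominant wells spread over a wide range of fshb.

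Of the 3 wells at 7 months 1 was lhb-dominant and 2 were mixed. The lhb-dominant well held 112 UMIs of cga, 108 of lhb and none of fshb among 637. The mixed wells held 194 of cga, 28 of lhb and 9 of fshb among 863, and 157 of cga, 24 of lhb and 13 of fshb among 611. No fshb-dominant well was found among the 203 and 106 kept wells at 7 months, and fshb had 0 and 23 UMIs in all kept wells of those plates. With fewer than 5 wells on each 7-month plate, gonadotropes of the 2 ages were not tested against each other.

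Transcripts of other pituitary hormones were sparse in the gonadotrope wells, with at least 1 UMI in 21 of the 43 (48.8%), against 24.2% of the other wells, which held fewer UMIs. They reached 4.74% of UMIs in 1 well. Thyrotropin β, tshba, never exceeded 1 UMI in a gonadotrope well, while 4 other wells held 89, 182, 85 and 7 tshba UMIs together with 27, 42, 36 and 3 of cga and no lhb or fshb. The rule thus left the cells with tshba outside although they also use cga. Transcripts of prl, pomca and smtla had no UMI in any of the 43 wells. The other wells held only 6, 2 and 0 UMIs of them, too few to tell the classes apart. For smtlb there were 3 UMIs in gonadotrope wells and 126 in the others. Growth hormone, gh1, had 78 UMIs in 1 gonadotrope well and 10 in another, both lhb-dominant, against up to 2057 in a single other well. These 2 wells are named again where a result rests on them.

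Across all genes, counts were summed per plate and class and compared with edgeR's quasi-likelihood test with plate as a block, and a gene was called at a Benjamini-Hochberg adjusted p of at most 0.05 over all genes tested. The 3 subunits and CGA (1 of many) took no part, and levels below are counts per 1000000 UMIs outside these 4 rows (CPM), or percent of the same UMIs for a list. The first 7-month plate, with 1 gonadotrope well, gave no sum, so 3 plates entered. On the second 7-month plate both gonadotrope wells together held 1016 UMIs outside these rows, so that 1 UMI there is 984 CPM and a value of 0 does not show a level below that. The test called 222 of 601 genes (36.9%), of which 69 were higher in gonadotrope wells (11.5%) and 153 lower (25.5%). Scaling by library size without TMM, which moved the median log2 difference over all genes from -0.05 to 0.36, turned this split into 150 higher and 129 lower. DESeq2 called 160 (26.6%), 40 higher (6.66%) and 120 lower (20%). On the 5-month plates alone 515 of 1423 genes were called (36.2%), 213 of them higher (15%) and 302 lower (21.2%).

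The genes of the secretory granule stood out in the gonadotrope wells. All 7 granule and prohormone-processing genes that passed the filter on low counts were higher, against 11.5% over all genes tested. Their median log2 difference was 3.24, against -0.05 over all genes tested. Such genes passed the filter largely through the class in which they are high, so the count is a description, here and for the lists below. Together the 16 members found made up 2.80%, 3.00% and 3.05% of UMIs in gonadotrope wells of the 3 plates and 0.155%, 0.145% and 0.0621% in the other wells. The plates of the 2 classes do not overlap.

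Secretogranin III, scg3, a granule matrix protein that sorts hormone precursors, was found in all 43 gonadotrope wells and in 155 of the 697 others. Its level was 22205 and 23680 CPM in gonadotrope wells of the 5-month plates and 17716 CPM on the second 7-month plate, against 904, 908 and 298 CPM in the other wells. The log2 difference was 4.28 ± 0.39 (SE) with an adjusted p of 6.96e-25 in edgeR's quasi-likelihood test (at most 0.00285 over 19 alternatives), and all 3 plates showed it. The 3 other wells richest in tshba held 48, 30 and 14 UMIs of scg3 among 2225, 2155 and 1202 UMIs. Single lhb-dominant wells of the first 5-month plate ran from 0.316% to 4.61% scg3, and these 3 wells lie within that range. A high level of scg3 was thus not particular to the gonadotrope wells.

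The chaperone of prohormone convertase, scg5, reached 1796, 2382 and 1968 CPM in gonadotrope wells and 85.1, 57.0 and 37.3 CPM in the other wells of the same plates (log2 difference 4.41 ± 0.37). The convertase inhibitor pcsk1nl reached 2362, 1845 and 1968 CPM against 194, 171 and 12.4 CPM (3.24 ± 0.33). The remaining 4 called members were chga (3.46 ± 0.47), scg2b (3.23 ± 0.50), the amidating enzyme pam (2.66 ± 0.51) and the granule membrane protein ptprna (2.62 ± 0.58). The convertase pcsk1 had a single UMI in gonadotrope wells, and the carboxypeptidase cpe had 4 UMIs in gonadotrope wells and 32 in the others. These cleaving enzymes were too sparse to test.

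Of the exocytosis genes, 3 of the 4 tested were higher (11.5% over all genes tested) and none was lower (25.5%). Complexin 1, cplx1, which clamps and then helps the fusion of docked vesicles, had 996, 1728 and 2953 CPM in gonadotrope wells and 32.3, 85.6 and 0 CPM in the others (4.40 ± 0.43). The vesicle SNAREs vamp1 (2.78 ± 0.67) and vamp2 (2.05 ± 0.50) were also higher, while syt11a was not called. On the 5-month plates alone stxbp1a, which holds syntaxin ready for fusion, joined them at 3.14 ± 0.62 with an adjusted p of 0.00533 in the same edgeR test, and snap25a, at 1.19 ± 0.58 with 0.153, did not.

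Folding and entry into the secretory pathway were high as well. Of 13 endoplasmic reticulum folding genes tested, 8 were higher (11.5% over all genes tested) and none lower (25.5%), with a median log2 difference of 1.42. They were the calreticulins calr3b (3.38 ± 0.40) and calr3a (2.2 ± 0.37), the disulfide isomerases pdia3 (2.91 ± 0.33) and p4hb (1.42 ± 0.36), the chaperones dnajc3a (3.81 ± 0.89), hyou1 (2.22 ± 0.47) and hsp90b1 (1.70 ± 0.44), and ppib (0.84 ± 0.34). The transcription factor atf4a and the stress-induced chaperone hspa5 were not called. As a share of UMIs the 37 genes made up 1.27%, 1.13% and 1.87% in gonadotrope wells and 0.397%, 0.352% and 0.444% in the other wells.

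For translocation, glycosylation and coat transport 6 of 9 genes tested were higher (11.5% over all genes tested) and none lower (25.5%). They include the signal peptidase subunits spcs3 (1.69 ± 0.49) and sec11a (1.64 ± 0.58), the translocon subunits ssr2 (1.41 ± 0.42), ssr3 (1.13 ± 0.44) and sec61g (0.97 ± 0.30), and the cargo receptor tmed10 (1.62 ± 0.45). DESeq2 called none of these 9 (2 at an unadjusted p under 0.05) and gave a positive difference for 8 of them. It called all 7 granule genes and 6 of the 13 folding genes.

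**Figure D3:**
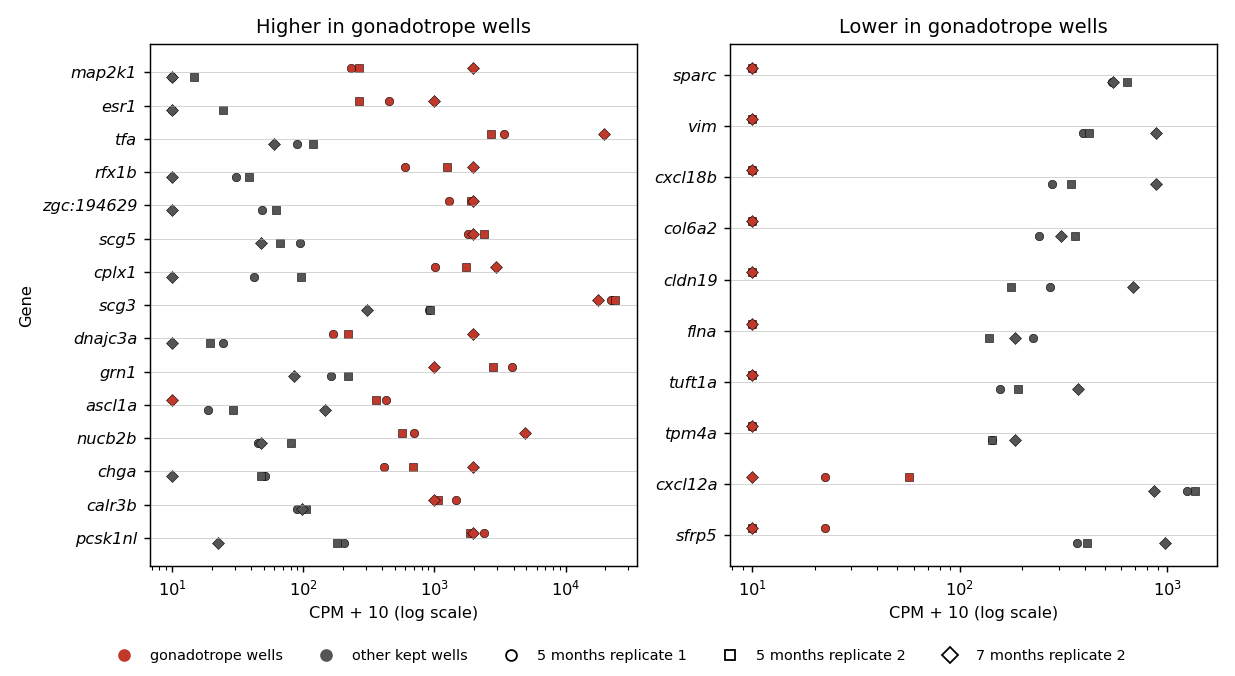
Counts per 1000000 UMIs (CPM) outside the 4 gonadotropin rows, plus 10 on a log scale, of the 15 genes with the largest higher and the 10 with the largest lower calls, per plate and class; a point at 10 stands for 0 UMIs. Gonadotrope and other wells of the same plate lie on opposite sides for each gene, except ascl1a on the second 7-month plate. There the gonadotrope wells had no UMI of ascl1a and the other wells 137 CPM. The naming rule took only genes with the same direction on both plates of the younger adults. Genes scarce in the other wells passed the filter on low counts largely through the gonadotrope wells. The agreement between plates is thus set in part by the selection and is no separate support.

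The largest higher differences among genes named by the rule belonged to transcripts that were almost missing elsewhere. The gene map2k1, which encodes a kinase of the MAPK cascade, had 31 UMIs in 21 gonadotrope wells and 1 UMI in all 697 other wells, a ratio of levels of 206 (counting interval 34.4 to 8404). The estrogen receptor esr1 had 49 UMIs in 27 of the 43 gonadotrope wells and 3 UMIs elsewhere, a ratio of 109 (35.1 to 545). Both intervals cover counting error only, and both genes passed the filter on low counts only through the gonadotrope wells. Transferrin, tfa, an iron carrier, had 3371, 2686 and 19685 CPM against 79.3, 109 and 49.7 CPM (5.02 ± 0.32). The regulatory factor X gene rfx1b had 590 and 1238 CPM at 5 months and 1968 CPM on the second 7-month plate against 20.5, 28.5 and 0 CPM (4.88 ± 0.52).

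Others of the 15 were zgc:194629 (4.83 ± 0.42), the granulin grn1 (3.80 ± 0.32), nucb2b, a nucleobindin (3.56 ± 0.47), and the proneural factor ascl1a (3.70 ± 0.56), next to the granule and folding genes above. Granulin reads may be split between grn1 and its neighbour in sequence, grn2. All 15 kept a positive difference under every alternative that gave a value. They were chosen for their large positive differences, and the alternatives refit the same plates, so this is no separate support. For dnajc3a the call was lost without the second 5-month plate, with an adjusted p of 0.0682 in edgeR's test.

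Of the receptors and feedback genes, esr1 was the single member that passed the filter on 3 plates. Its adjusted p was 2.56e-11 in edgeR's quasi-likelihood test (at most 0.00962 over 18 alternatives). Since esr1 passed the filter only through the gonadotrope wells, these p-values describe the difference and are no separate support for it. The 5-month plates alone also called esr2b, the other estrogen receptor type, at 1.69 ± 0.54 with an adjusted p of 0.0385 in edgeR's test, from 15 UMIs in 10 gonadotrope wells. A gonadotropin-releasing hormone receptor, gnrhr2, had 8 UMIs in 4 wells, all lhb-dominant, and none in the 697 other wells, which is too few to test. The androgen receptor ar had 6 UMIs in 6 gonadotrope wells and 7 in 7 others, and pgr had 2 and 0.

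Among pituitary transcription factors 3 passed the filter on 3 plates: ascl1a and eya1 (1.53 ± 0.44) were higher and egr1 (-1.73 ± 0.30) was lower. Over all genes tested 11.5% were higher and 25.5% lower. The 5-month plates alone tested 8, of which 6 were higher (15% over all genes tested there) and 1 lower (21.2%). The nuclear receptor nr5a1b, a zebrafish counterpart of steroidogenic factor 1, which in mammals is required for gonadotrope gene expression, had 25 UMIs in 17 gonadotrope wells and 1 UMI in all others, a ratio of levels of 166 (counting interval 27.2 to 6828). It is 1 of the 6 and passed the filter only through the gonadotrope wells. Higher were also the neuroendocrine zinc-finger gene insm1a (2.32 ± 0.36), gata2a (1.92 ± 0.59) and pitx3 (1.57 ± 0.46). The gene six1b (2.11 ± 0.72, adjusted p of 0.0516 in edgeR's test) was not called.

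**Figure D4:**
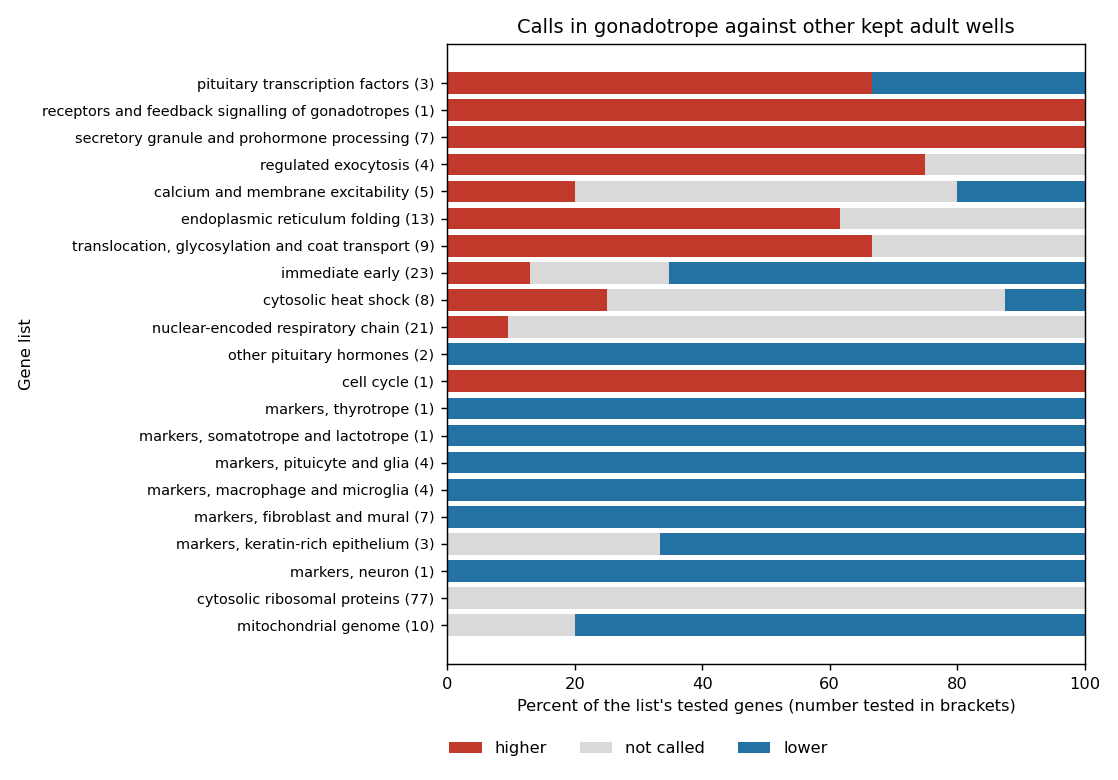
Percent of the tested genes of each list called higher, not called or called lower in gonadotrope against other kept adult wells in the fit on 3 plates, with the number tested in brackets. The granule, exocytosis, folding and translocation lists hold no gene called lower, the marker lists of other cells hold none called higher, and the 77 ribosomal protein genes hold no call.

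Early-response genes, which cells induce within minutes of a stimulus or of handling, were mostly lower in gonadotrope wells. Of 23 tested, 15 were lower and 3 higher, with a median log2 difference of -1.23. Over all genes tested 25.5% were lower and 11.5% higher, so the 3 higher calls are near the share over all genes. Among the lower genes fosab had 3026, 1775 and 0 CPM in gonadotrope wells and 6367, 5191 and 12467 CPM in the others (-2.01 ± 0.34), and junba (-1.91 ± 0.30) and egr1 showed the same order on the 3 plates. The cytokine-response genes cebpd (-3.42 ± 0.55) and cebpb (-3.11 ± 0.40) were lower by more, and socs3b had 3 UMIs in gonadotrope wells and 293 elsewhere, a ratio of 14.7 (counting interval 4.97 to 71.6).

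The 3 early genes that were higher were egr3 (2.59 ± 0.43), egr4 (1.86 ± 0.41) and nr4a1 (0.83 ± 0.29). The call of nr4a1 was lost in 7 of 19 alternatives, some of which repeat another fit. Its adjusted p without the first 5-month plate was 0.396 in edgeR's test, and without the second 0.808. For egr3 the call was lost without the first 5-month plate, with an adjusted p of 0.173. As a share of UMIs the whole list made up 1.62% and 1.28% in gonadotrope wells at 5 months, against 2.27% and 2.2% in the other wells. The medians over single wells had the opposite order, at 1.95% and 1.13% in gonadotrope wells and 1.41% and 0.980% in the others.

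Most tested markers of other cell types were lower in gonadotrope wells. All 7 fibroblast and mural markers tested were lower, with a median of -5.49, as were all 4 pituicyte and glia markers (-4.79) and all 4 macrophage and microglia markers (-4.45). Over all genes tested 25.5% were lower. Of the 10 largest lower differences, sparc had 763 UMIs in other wells and none in gonadotrope wells, at least 38.2-fold lower when 3 counts over all gonadotrope wells are taken as the limit. In the same way vim was at least 23.7-fold lower, the chemokine cxcl18b at least 21.5-fold and the collagen col6a2 at least 17.5-fold. The chemokine cxcl12a had 3 UMIs in gonadotrope wells and 939 elsewhere, a ratio of 47.1 (counting interval 16.1 to 229), and the Wnt inhibitor sfrp5 1 and 395, a ratio of 59.4 (10.6 to 2351). Markers with a higher CPM over all gonadotrope than over all other wells were epcam, krt5, elavl4, sncb, syt1a, mbpb, slc16a9b and pcsk1. Only epcam among these passed the filter on 3 plates, and it was not called, while the rest were not tested there. Among these markers elavl4 had 79.7 against 28.7 CPM from 10 and 24 UMIs, and the epithelial adhesion gene epcam 199 against 159 CPM.

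The defining glial transcripts cyp26b1, which degrades retinoic acid, and cyp19a1b, the brain aromatase, were at 221, 187 and 0 CPM and at 86.1, 117 and 0 CPM in gonadotrope wells. In the other wells they were at 4990, 4678 and 8415 CPM and at 1409, 1388 and 2685 CPM. The macrophage gene cd74a was at 221, 210 and 0 CPM against 3317, 4478 and 932 CPM, the last of which is less than 1 UMI in the gonadotrope wells of that plate. All 11 endothelial, 9 erythrocyte and 10 lymphocyte markers found had 0 UMIs in gonadotrope wells. They were rare in the other wells too, with a UMI in 5.02%, 0.430% and 0.143% of them. The 0 for erythrocyte and lymphocyte markers therefore does not set the classes apart. Beside each gene group above, the highest summed level in a single gonadotrope well was 0.174% of UMIs for the glial list, 0.181% for the macrophage list and 0.243% for the fibroblast list.

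Growth hormone and tshba were lower in gonadotrope wells, at -2.87 ± 0.37 and -3.18 ± 0.55. Their levels in the other wells came from few wells, with 14 wells of all kinds at 10 or more gh1 UMIs and 4 at 5 or more tshba UMIs, and 1 well gave over 50% of the other wells' UMIs of each gene on both 5-month plates, so neither met the naming rule. Detection ran the other way, with gh1 in 30.2% of gonadotrope and 18.8% of other wells and tshba in 20.9% and 4.45%, and the gonadotrope wells were the deeper ones. The neuronal list split, with tubb5 lower (-3.16 ± 0.66). Its members gap43, map1b, stmn2a and stmn2b, too sparse to test, had a lower CPM in gonadotrope wells. The 5-month plates alone tested 4 members, of which 1 was higher (15% over all genes tested there) and 2 lower (21.2%). Besides tubb5, elavl3 was lower there, with no UMI in gonadotrope wells and 107 UMIs in 22 others. The synuclein sncb was higher (2.97 ± 0.65, 28 UMIs in 18 gonadotrope wells and 13 UMIs in 6 others). The sodium pump subunit atp1a3b, typical of excitable cells, was higher on those plates too (4.01 ± 0.45), with 58 UMIs in 26 gonadotrope wells and 14 in 11 others.

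Of 77 ribosomal protein genes, 0 were called by edgeR's quasi-likelihood test (1 at an unadjusted p under 0.05) and 0 by DESeq2 (0). Scaled by library size alone, 26 were called higher, so the absence of calls depends on the scaling. As a share of UMIs the list made up 18.6%, 19.7% and 22.8% in gonadotrope wells of the 3 plates. In the other wells it made up 14.3%, 13.2% and 11.4%. The mitochondrial genome list had 8 of 10 genes lower (25.5% over all genes tested), with a median log2 difference of -1.0. None was called in the fit without the plate term (6 at an unadjusted p under 0.05). The summed list made up 3.87%, 3.95% and 1.28% of UMIs in gonadotrope wells of the 3 plates and 4.86%, 5.62% and 3.51% in the others. At 5 months these shares differ by less than the median of the fit. Outside the 4 gonadotropin rows, mitochondrial transcripts were a median of 3.58% and 3.76% of UMIs in gonadotrope wells of the 5-month plates. In the other wells of those plates the medians were 4.40% and 4.96%. Their part in the other differences was not tested. Of 21 nuclear respiratory chain genes, only ndufa1 (1.79 ± 0.44) and atp5h (1.35 ± 0.46) were called higher. This share does not exceed the 11.5% called higher over all genes tested. The count was 11 when scaled by library size and 0 with DESeq2.

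The lhb-dominant and fshb-dominant wells were then compared on the 5-month plates, with 22 and 15 wells summed per plate. The rule used lhb and fshb, so these and cga have no test. The fit called 32 of 265 genes (12.1%), 12 higher in lhb-dominant wells (4.53%) and 20 lower (7.55%), from 4 sums with 1 residual degree of freedom. These calls are fragile: without the 2 wells with gh1 the same test called 0 of 255 genes (34 at an unadjusted p under 0.05), with dominance set at 90% it called 0 of 189 (20 at that p), and without the plate term 12. DESeq2 called 5 (1.89%), 4 higher (1.51%) and 1 lower (0.377%). The sizes of the differences changed less, and the values by well are given for that reason.

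Complexin 1 was the clearest gene of the fshb-dominant wells. It was found in all 15 of them and in 14 of the 23 lhb-dominant wells. Per 10000 UMIs outside the gonadotropin rows, the lowest, median and highest values at 5 months were 5.34, 22.7 and 78.0 in fshb-dominant wells and 0, 3.66 and 13.6 in lhb-dominant wells, so the ranges overlap between 5.34 and 13.6. The log2 difference of lhb-dominant minus fshb-dominant wells was -2.61 ± 0.30, with an adjusted p of 8.61e-14 in edgeR's quasi-likelihood test. It was -2.65 with 0.0280 in DESeq2 and -2.57 with 0.103 in edgeR's test without the 2 wells with gh1, and over all 8 alternatives the adjusted p was at most 0.160.

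The granulin grn1 went the other way. Its lowest, median and highest values were 0, 39.9 and 131 per 10000 UMIs in lhb-dominant wells and 0, 4.22 and 77.4 in fshb-dominant wells, and 19 of 23 and 8 of 15 wells had it. The difference was 2.39 ± 0.28 with an adjusted p of 2.17e-13 in edgeR's test, 0.00790 in DESeq2 and 0.193 in edgeR without the 2 wells with gh1. Its paralog grn2 was called too (3.39 ± 0.36), but 64.4% of its UMIs on the second plate in lhb-dominant wells were from 1 well. Likewise s100t (4.08 ± 0.51) had 97.7% of them from 1 well, so neither met the naming rule.

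Of 6 granule genes tested between the kinds 1 was higher in lhb-dominant wells, 1 lower and 4 not called, with a median log2 difference of 0.38. Over all genes tested 4.53% were higher and 7.55% lower, with a median of -0.04. The list summed to 3.02% and 3.13% of UMIs in lhb-dominant and 2.30% and 2.35% in fshb-dominant wells, with well medians of 3.22% and 2.55% against 2.68% and 2.18%, and single wells overlapped. The level of scg3 did not pass the test between the kinds (0.39 ± 0.22, adjusted p of 0.352 in edgeR's test), with a median of 192 per 10000 UMIs in each kind. In contrast scg5 had a median of 29.1 per 10000 UMIs in lhb-dominant and 5.05 in fshb-dominant wells (1.93 ± 0.31). The amidating enzyme pam had the opposite order, with medians of 0 and 7.77 and UMIs in 7 of 23 and 12 of 15 wells (-2.36 ± 0.60). The isomerase pdia3 was called higher in lhb-dominant wells (1.29 ± 0.30), as 1 of 12 folding genes tested, against 4.53% over all genes tested.

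The other genes named by the rule as higher in lhb-dominant wells were si:dkey-256h2.1, znf292a (2.71 ± 0.68) and pdk2a, an inhibitor of pyruvate dehydrogenase, with 36 against 3 UMIs, a ratio of 6.33 (counting interval 2.0 to 32.1). The first had 53 UMIs in 17 of 23 lhb-dominant wells, 1 in the mixed and none in the fshb-dominant wells, at least 9.32-fold higher against 3 counts. Higher in fshb-dominant wells were rgs5b, a regulator of G-protein signalling (-2.81 ± 0.58), mbnl3, a splicing factor (-2.64 ± 0.62), egr3 (-2.38 ± 0.50) and junbb (-2.16 ± 0.58).

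**Figure D5:**
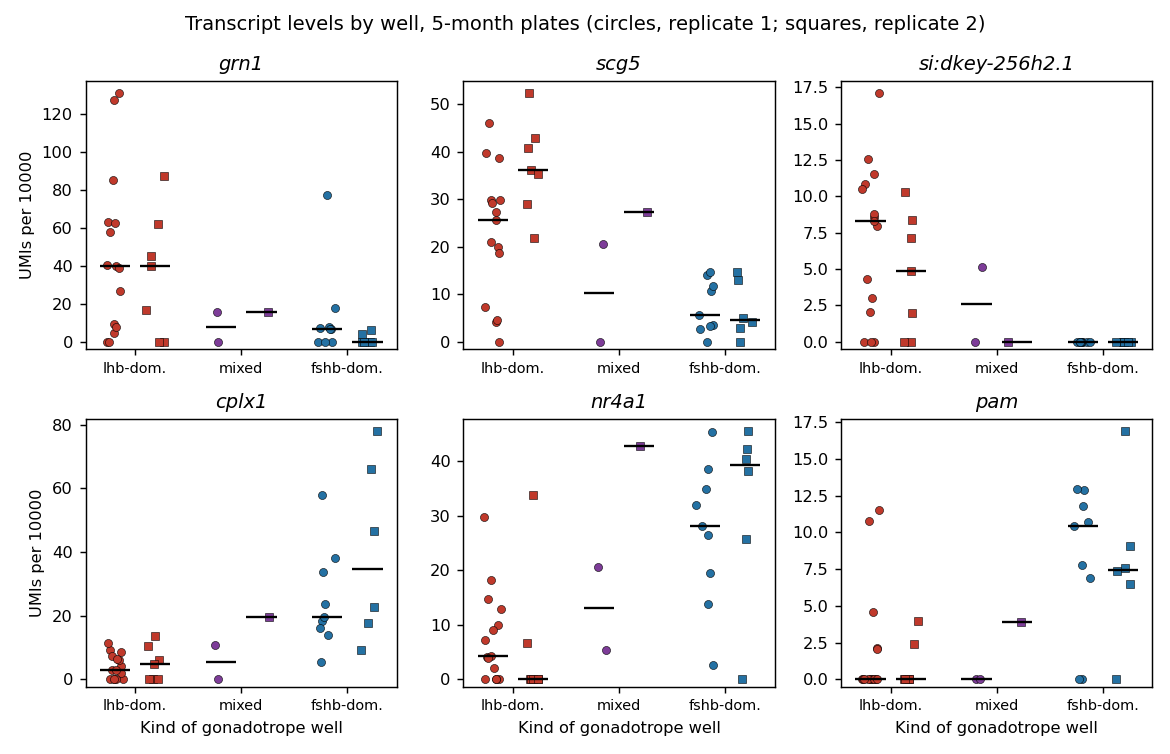
UMIs per 10000 UMIs outside the 4 gonadotropin rows in each 5-month gonadotrope well for grn1, scg5, si:dkey-256h2.1, cplx1, nr4a1 and pam, by kind (colour) and plate (shape), with black lines at the median of each plate. The medians of both plates lie higher in lhb-dominant wells for the upper row and higher in fshb-dominant wells for the lower row, with overlapping wells for every gene.

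Early-response genes were the largest group among the calls between kinds, with 8 of 12 tested lower in lhb-dominant wells and none higher. Over all genes tested 7.55% were lower and 4.53% higher. The median of the list was -1.34, against -0.04 over all genes tested. The 8 were fosl1a (-3.23 ± 0.65), egr3, junbb, nr4a1 (-1.90 ± 0.28), junba (-1.62 ± 0.52), btg2 (-1.38 ± 0.30), fosab (-1.30 ± 0.26) and egr1 (-0.89 ± 0.30). Of these fosl1a, with 5 UMIs in 4 lhb-dominant and 28 in 11 fshb-dominant wells, did not meet the naming rule, since 1 well gave 88.9% of its fshb-dominant UMIs on the second plate. The list summed to 2.25% of UMIs in fshb-dominant wells of either plate and to 1.26% and 0.572% in lhb-dominant wells. Single wells ran from 0.235% to 3.50% and from 0.143% to 2.32%, so the kinds overlap widely. DESeq2 called none of the 12 (4 at an unadjusted p under 0.05).

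The receptor nr4a1 showed both sides of this. It had 60 UMIs in 13 of 23 lhb-dominant wells and 119 UMIs in 14 of 15 fshb-dominant wells, with medians of 3.97 and 32.0 per 10000 UMIs. Its level in fshb-dominant wells was 2565 and 3513 CPM on the 2 plates and 811 and 715 CPM in lhb-dominant wells, beside 766 and 575 CPM in the other wells. For egr3 the levels were 2060 and 1657 CPM, 541 and 159 CPM, and 73.4 and 171 CPM. For nr4a1 the lhb-dominant wells lay near the other wells, and the fshb-dominant wells above both on each plate.

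Of 8 cytosolic heat shock genes tested, 3 were called lower in lhb-dominant wells, against 7.55% over all genes tested. They were hsp70.1 (-0.80 ± 0.28), hsp70.2 (-0.89 ± 0.25) and hsp70.3 (-1.13 ± 0.26). The other 5 were not called, and among them hsp70l went the other way (1.09 ± 0.50, adjusted p of 0.192 in edgeR's test). The plates differ here: hsp70.1 was at 278 CPM in lhb-dominant wells of the second plate against 2519 CPM in fshb-dominant ones, but at 3708 against 3304 CPM on the first. For hsp70.2 the direction also differed between the plates. Reads of the near-identical hsp70.1, hsp70.2 and hsp70.3 may also have been shared among them. The mitochondrial genes mt-cyb (0.86 ± 0.27) and mt-co3 (0.65 ± 0.23) were higher in lhb-dominant wells. The call of gh1 (2.29 ± 0.66) rests on the well with 78 UMIs.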

How the data were processed

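The deposited tables give raw UMI counts per gene and well, not normalized, per the file headers and values. The submitters' processing notes list bcl2fastq 2.15.0.4, Seurat 3.1.5 and the build danRer10; the aligner and counting rules are not given in the sources used here. No per-sample column was left unused (0).

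Wells with at least 400 UMIs, spike-in rows left out, were kept. Members and gene lists were chosen with earlier results of these data known. Counts were summed per plate and class (at least 2 wells) and tested in edgeR 4.0.16 (R 4.3.3; filterByExpr, TMM, glmQLFit, glmQLFTest, 2-sided, plate as block); 2 such comparisons were made. The SE is the log2 difference over the square root of F. The procedure was tested on simulated data. DESeq2 1.42.0 and other filters, scalings, depth and share limits, thinning to 400 UMIs and left-out plates were alternatives. Leaving out the gonadotrope wells with gh1 was added after seeing the data.

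Plates are paired because both classes come from the same plate. The naming rule took called genes with at least 20 UMIs (10 between kinds), the same direction on both 5-month plates and no well above 50% of the UMIs. Of these it took the 15 largest higher and 10 largest lower (6 each between kinds), with the hormone genes, scg3 and called list members. The text names only part of these genes. Called members not named include calm1a, rgs5a, hsp90aa1.2, hspa8 and tubb2b, of the calcium, heat shock and cell cycle lists. Of 222 and 32 calls, 210 and 25 met these limits. Ratios of summed levels at 1 to 3 UMIs carry exact counting intervals. Sequences of the named genes were not analysed here.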

Additional observations from a re-analysis of the deposited data

How the results depend on the processing

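Gonadotrope against other wells: the count of 222 calls (69 higher, 153 lower) became 160 (40 and 120) with DESeq2, 279 (150 and 129) with library size, 753 (150 and 603) without the filter, 515 (213 and 302) on the 5-month plates, 486 (215 and 271) with at least 1000 UMIs and 80 (24 and 56) with wells thinned to 400 UMIs. Median-of-ratios factors gave 236 (60 and 176). These settings moved the median log2 difference over all genes from -0.05 to between -1.37 and 0.36. Leaving out 1 plate gave 100 to 515 calls, 27 to 213 higher and 73 to 302 lower: 100 without the first 5-month plate, 111 without the second and 515 without the second 7-month plate. Without the block that pairs the classes by plate there were 189 (58 and 131). Of the values of named genes, 1527 were the same in direction and call, 188 lost the call and 1 reversed: hsp70.3 was at -0.044 without the filter. Some alternatives repeat another fit. An upper limit of 30% mitochondrial UMIs removed no well, and the first 7-month plate gave no sum. Both of these alternatives equal the main fit, and each adds 94 of the 1527. The fit without the second 7-month plate is the fit on the 5-month plates. The repeats also count among the alternatives given for single genes. The calls of tuft1a, tpm4a and dcn each missed the threshold under 1 alternative.

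Between kinds, 32 calls (12 and 20) became 5 (4 and 1) with DESeq2, 12 (4 and 8) without the block, 23 (13 and 10) without the filter, 0 with dominance at 90% and 0 without the wells with gh1. Leaving out a plate leaves no residual degree of freedom and was not run. Of the named genes' values here, 89 lost the call and none reversed. The cause was not tested.

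The 5-month share was 6.99% with at least 200 UMIs, 16.1% with 1000 and 6.19% with a gonadotropin limit of 10%; the 7-month share was 0% with 1000 UMIs. Single plates gave 8.05% to 10.1% and 0.493% to 1.89%. At 5 months lhb averaged 3.59% of UMIs and cga 9.13% per well, 5.10% and 11.2% with the 10% limit, and lhb 4.56% in summed UMIs.

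The limits are that the 7-month plates hold 3 gonadotrope wells, many list members had too few UMIs to be tested, and each age is 1 pool.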

Other observations

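Outside the lists, the gonadotrope wells held further higher genes, chosen here after their values were seen. All adjusted p-values are from edgeR's quasi-likelihood test with Benjamini-Hochberg adjustment on the 3 plates. The genes aldocb, a fructose-bisphosphate aldolase (log2 difference 2.84 ± 0.37, SE), eno1a, an enolase (1.40 ± 0.43), and gapdhs, a glyceraldehyde-3-phosphate dehydrogenase (1.31 ± 0.30), were higher, and no list of their pathway was tested. The lactate dehydrogenase gene ldha was lower (-2.40 ± 0.69), with an adjusted p of 0.00182. The glutathione-degrading enzyme chac1 (2.28 ± 0.32) and the cationic amino acid transporter slc7a3a (2.03 ± 0.60) were higher as well.

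Also higher were fkbp5, a co-chaperone of steroid receptors (1.55 ± 0.35), the G-protein subunit gnao1a (1.78 ± 0.59), the protease inhibitor serpini1 (2.81 ± 0.74) and SERP1, which protects membrane proteins at the translocon (1.96 ± 0.39). Between lhb-dominant and fshb-dominant wells, aldocb differed by 0.33 ± 0.42 and fkbp5 by 1.03 ± 0.54 (adjusted p of 0.827 and 0.327 in edgeR's test), and neither was called.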
